A study of Homo sapiens with 12 samples.

Results

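CXCL1, CXCL2, CXCL3, CXCL5, CXCL6 and CXCL8 are the neutrophil-attracting chemokines of the CXC class that lie together on human chromosome 4, and they make up 6 of the 60669 genes counted in each library. They were selected by gene symbol and Ensembl identifier, a rule that uses no measured value, but the family itself was picked with earlier results of these data known. Each encodes a small secreted protein with a Glu-Leu-Arg stretch ahead of its first cysteines, which lets it bind CXCR2 on neutrophils, while CXCL6 and CXCL8 also bind CXCR1. Epithelial and tumour cells make these chemokines when TNF or interleukin-1 frees NF-κB from its inhibitor in the cytoplasm. The factor then enters the nucleus and binds κB sites in the promoters, and the mRNAs made are short-lived because AU-rich elements in their 3′ ends recruit decay factors. In pancreatic cancer the family is known for drawing neutrophils into the tumour.

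RNA was sequenced from PANC-1, an established cell line from a human pancreatic ductal adenocarcinoma, in 12 libraries that fall into 6 groups of 2 biological replicates. All cells were reverse transfected for 72 h, with an siRNA against SIK3, a salt-inducible kinase, or with a control siRNA, and were left without TNF or given recombinant human TNF-α at 100 ng/mL for 30 min or 4 h. Titles and submitted file names disagree on which library is which, so groups are called here by the words of the file names, SIK3 or Scr1 for the siRNA and CLM, 30min or 4h for the time, with CLM read as no TNF. The titles call the targeting siRNA siAS1, and its target SIK3 is named in the sample characteristics. It is written as SIK3 siRNA wherever titles are given here. By title, the libraries named SIK3 CLM are SIK3 siRNA with TNF for 30 min, those named SIK3 30min are control siRNA with TNF for 4 h, and those named SIK3 4h are SIK3 siRNA with TNF for 4 h. The libraries named Scr1 CLM are control siRNA without TNF, those named Scr1 30min are SIK3 siRNA without TNF, and those named Scr1 4h are control siRNA with TNF for 30 min. Names and titles thus differ for 8 of the 12 libraries, and every direction given below is one between libraries so named. SIK3 mRNA, the target, was at 19.3 ± 4.30, 20.6 ± 4.79 and 20.5 ± 3.20 CPM (read counts scaled to library size) in SIK3 CLM, 30min and 4h, against 47.3 ± 18.4, 55.6 ± 18.6 and 49.8 ± 21.8 CPM in Scr1 CLM, 30min and 4h (SD, n = 2 each). Over the 3 conditions it was lower in the SIK3-named libraries by a log2 fold change of -1.33 (SE 0.22, edgeR quasi-likelihood adjusted p = 0.00052), and the ranges of the 6 SIK3-named and 6 Scr1-named libraries do not overlap.

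The libraries held 13535825 to 22699756 gene counts, so 3 counts, taken as the floor of detection, correspond to 0.132 to 0.222 CPM, a limit that covers counting error only. Reads outside any gene made up 8.35 to 17.1% of reads, with 16.5 and 17.1% in the SIK3 4h libraries, and multimapping reads made up 4.94 to 17.6% in replicates 1 and 10.2 to 45.3% in replicates 2. All 6 epithelial markers were above 1 CPM on average (KRT8, KRT18, KRT19, KRT7, EPCAM and CDH1, summed 5256 to 6962 CPM). VIM, a mesenchymal marker, was at 1353 to 3998 CPM, while 1 of 9 leukocyte markers was (ITGAM, list summed 2.70 to 5.51 CPM). PTPRC, which marks all leukocytes, had 4 counts in all libraries together, 0 of 5 endothelial markers passed 1 CPM (summed 0.321 to 1.32 CPM, TEK at 0), and 2 of 5 fibroblast markers did (COL1A1 and COL3A1, summed 15.3 to 36.5 CPM). In bulk RNA a change in the number of cells that make an mRNA and a change in RNA per cell cannot be told apart. The p-values measure the spread between replicates labelled biological, and no source used here says what separated those replicates.

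The 6 genes spread over 358.8 kb of chromosome 4 in GRCh38, a stretch that 16 annotated genes overlap. On the plus strand CXCL8 (ENSG00000169429) spans chr4:73740506-73743716, CXCL6 (ENSG00000124875) spans chr4:73836497-73849064 and CXCL1 (ENSG00000163739) spans chr4:73869393-73871242. On the minus strand CXCL5 (ENSG00000163735) spans chr4:73995642-73998779, CXCL3 (ENSG00000163734) spans chr4:74036589-74038807 and CXCL2 (ENSG00000081041) spans chr4:74097035-74099293. CXCL6 overlaps the pseudogene PPBPP1 on the same strand, so reads there may have been set aside as ambiguous and counted for neither. Over all genes such reads made up 1.77 to 4.78% of a library.

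The promoters of all 6 genes hold the same 9-letter NF-κB motif on the gene's own strand, and the 79 bases around it are shown because it is the sequence feature the whole family shares. They are from RefSeq on GRCh38.p14, 5′ to 3′ along each gene, with the motif in capitals.
CXCL1: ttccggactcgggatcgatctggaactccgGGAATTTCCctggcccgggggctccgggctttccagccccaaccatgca
CXCL2: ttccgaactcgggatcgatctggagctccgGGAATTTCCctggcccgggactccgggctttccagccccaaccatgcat
CXCL3: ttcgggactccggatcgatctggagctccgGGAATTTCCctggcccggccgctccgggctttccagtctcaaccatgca
CXCL5: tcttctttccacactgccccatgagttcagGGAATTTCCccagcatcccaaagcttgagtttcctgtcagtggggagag
CXCL6: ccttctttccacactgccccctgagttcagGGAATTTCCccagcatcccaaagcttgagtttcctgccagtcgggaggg
CXCL8: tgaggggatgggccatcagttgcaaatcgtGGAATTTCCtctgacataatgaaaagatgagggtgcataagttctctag

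These stretches lie at chr4:73869285-73869363 for CXCL1 on the plus strand, chr4:74099224-74099302 for CXCL2, chr4:74038719-74038797 for CXCL3 and chr4:73998719-73998797 for CXCL5 on the minus strand. They lie at chr4:73836559-73836637 for CXCL6 and chr4:73740448-73740526 for CXCL8 on the plus strand. The motif ended 69 or 70 bases before the RefSeq start of CXCL1, CXCL2 and CXCL3, and 81 to 83 bases before that of CXCL5, CXCL6 and CXCL8. In GENCODE 29 the spans of all members but CXCL1 begin further upstream, so the whole stretch falls inside the gene there for CXCL3 and CXCL6, and part of it for CXCL2, CXCL5 and CXCL8. The letters GGAATTTCC, searched on both strands from 250 bases before to 50 after the start, were in 162 of 35116 promoters (0.461%). A longer form that contains it, GGGAATTTCC, was in 5 of the 6 members, all but CXCL8, and in 51 promoters (0.145%). The flanks fall into 3 kinds: CXCL1, CXCL2 and CXCL3 read almost alike, CXCL5 and CXCL6 read almost alike, and CXCL8 resembles neither.

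CXCL8 was also the one member with the exact letters of an AP-1 motif, TGACTCA, and of a TATA box, TATAAA, in the window. Only these letters were searched, so near forms, such as CATAAA in CXCL1, CXCL2 and CXCL3, were not counted. The 250 bases before the CXCL8 start (chr4:73740319-73740568, plus strand) are shown with TGACTCA, GGAATTTCC and TATAAA in capitals.
CXCL8: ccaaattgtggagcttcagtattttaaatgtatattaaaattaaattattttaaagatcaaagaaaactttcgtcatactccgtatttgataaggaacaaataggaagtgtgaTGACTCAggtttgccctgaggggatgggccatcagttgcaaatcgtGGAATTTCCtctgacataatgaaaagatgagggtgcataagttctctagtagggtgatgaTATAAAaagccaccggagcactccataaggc
For contrast the 250 bases before the start of CXCL3 (chr4:74038690-74038939, minus strand), the one of the 4 well-counted members with the widest range, hold GGAATTTCC alone among those 3 motifs.
CXCL3: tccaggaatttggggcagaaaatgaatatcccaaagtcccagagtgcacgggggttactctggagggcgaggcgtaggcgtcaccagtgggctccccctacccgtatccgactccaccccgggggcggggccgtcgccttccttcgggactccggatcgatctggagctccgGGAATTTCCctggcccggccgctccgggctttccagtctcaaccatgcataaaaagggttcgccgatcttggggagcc

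Of all promoters searched on both strands, 4.95% held TGACTCA and 11.5% held TATAAA. The cAMP response element TGACGTCA was in 0 of the 6 members and in 1.85% of promoters, while its shorter form TGACG, which occurs within it, was in CXCL2, CXCL3 and CXCL8 and in 24.6% of promoters. The GC box GGGCGG was in CXCL1, CXCL3 and CXCL6 and in 45% of promoters. A match describes the letters only, and binding was not measured.

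The kinship seen in the promoters ran through the coding sequences. Coding identity was 93.5% between CXCL1 and CXCL2, 90.7% between CXCL1 and CXCL3, 94.4% between CXCL2 and CXCL3 and 87.5% between CXCL5 and CXCL6, whereas CXCL8 matched the others at 59.7 to 64.4%. Because of this, 5.73% of the 50-base windows of CXCL1 mRNA, 9.24% of those of CXCL2 and 5.26% of those of CXCL3 also occur in another of the 3, so a short read there cannot be assigned and the counts of these genes carry that uncertainty. No 100-base window was shared by any member, and the read length is not given in the sources used here. All members have 3′ UTRs with more copies of ATTTA, a short AU-rich sequence, than the median gene. The longer TTATTTATT was not in all: it occurred 3 times in CXCL1, 5 in CXCL2, 1 in CXCL3 and 1 in CXCL8. In CXCL5 and CXCL6 it occurred 0 times. The pentamer ATTTA occurred 5 times in CXCL1, 10 times in CXCL2, 7 times in CXCL3, 11 times in CXCL5, 6 times in CXCL6 and 9 times in CXCL8, against a median of 2 over 19111 genes. Per kb of 3′ UTR this came to 13.9 in CXCL2, the highest of the family, and to 5.36 in CXCL6, the lowest, against a median of 1.47.

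The family split into 4 abundant members and a scarce pair. CXCL8, the chemokine also known as interleukin-8, had 22462 counts over the 12 libraries, CXCL1 had 18488, CXCL2 had 6732 and CXCL3 had 1899, while CXCL5 had 172 and CXCL6 had 153. Per kb of exon the median level was 285.2 TPM (counts scaled to the length of all annotated exons and to library total) for CXCL1, 130.4 for CXCL8, 91.2 for CXCL2, 13.7 for CXCL3, 1.27 for CXCL6 and 1.02 for CXCL5. That length can exceed the mRNA: it is 2219 bp for CXCL3, whose mRNA has 1075 bases, so the value of CXCL3 is low for its mRNA length. All 6 passed the filter on low counts that left 16695 genes, CXCL5 only through its Scr1-named libraries. The values that follow are in CPM scaled by TMM, replicate 1 then replicate 2.

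CXCL8, which acts through both receptors, was at 40.01 and 32.04 CPM in SIK3 CLM, 81.4 and 58.3 CPM in SIK3 30min, and 260.5 and 232.5 CPM in SIK3 4h. The same mRNA was at 25.11 and 16.97 CPM in Scr1 CLM, 87.3 and 70.4 CPM in Scr1 30min, and 262.4 and 170.8 CPM in Scr1 4h. Each step upward in time cleared the step before it, and with TNF the SIK3-named and Scr1-named libraries overlap at either time.

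CXCL1, the member with the highest median level per kb of exon, was at 56.2 and 63.9 CPM in SIK3 CLM, 88.2 and 106.1 CPM in SIK3 30min, and 101.8 and 137.8 CPM in SIK3 4h. Its levels were 27.4 and 34.4 CPM in Scr1 CLM, 106.7 and 123.9 CPM in Scr1 30min, and 97.8 and 110.8 CPM in Scr1 4h. Per kb of exon CXCL8 was on average above CXCL1 at 4h. In SIK3 4h it was at 407.6 ± 30.3 against 347.8 ± 76.0 TPM, and in Scr1 4h at 349.2 ± 104 against 295.1 ± 26.45 TPM (SD, n = 2 each). For CXCL1 both CLM groups lie below every TNF library, and SIK3 CLM lies above Scr1 CLM, while neighbours in the order of the 4 TNF groups overlap.

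CXCL2, its close homologue, was at 10.6 and 13.7 CPM in SIK3 CLM, 29.1 and 41.0 CPM in SIK3 30min, and 32.9 and 40.7 CPM in SIK3 4h. It was at 7.40 and 9.19 CPM in Scr1 CLM, 54.3 and 62.0 CPM in Scr1 30min, and 41.0 and 42.6 CPM in Scr1 4h. The Scr1 30min libraries are the highest of the 12 and the Scr1 CLM libraries the lowest, and the SIK3 30min and SIK3 4h libraries overlap each other.

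CXCL3, the third of the near-identical group, was at 1.17 and 1.56 CPM in SIK3 CLM, 9.83 and 10.3 CPM in SIK3 30min, and 7.97 and 6.73 CPM in SIK3 4h. It was at 0.952 and 1.06 CPM in Scr1 CLM, 24.0 and 22.4 CPM in Scr1 30min, and 12.6 and 8.38 CPM in Scr1 4h. Both Scr1 30min libraries stand above every other library, the next of which is at 12.6 CPM, and Scr1 4h overlaps SIK3 30min.

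CXCL5, an epithelial chemokine, was at 0.0836 and 0.136 CPM in SIK3 CLM, 0.153 and 0.392 CPM in SIK3 30min, and 0.0664 and 0.441 CPM in SIK3 4h, from 1 to 8 counts a library. It was at 1.06 and 1.20 CPM in Scr1 CLM, 0.933 and 0.964 CPM in Scr1 30min, and 2.97 and 2.14 CPM in Scr1 4h, from 17 to 49 counts a library. Every Scr1-named library is above every SIK3-named one, and 4 of the 6 SIK3-named libraries are at or under the floor of 3 counts.

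CXCL6 is the member closest to CXCL5 in sequence. It was at 0.878 and 0.816 CPM in SIK3 CLM, 1.43 and 0.539 CPM in SIK3 30min, and 0.996 and 0.827 CPM in SIK3 4h. Its levels were 0.634 and 0.495 CPM in Scr1 CLM, 0.219 and 0.536 CPM in Scr1 30min, and 0.850 and 0.316 CPM in Scr1 4h. Neighbouring groups in its order of levels overlap throughout, and it was the 1 member that did not pass the test for any difference among the 6 groups (edgeR quasi-likelihood adjusted p = 0.381). The other 5 passed it, at adjusted p from 1.88e-06 for CXCL3 to 0.000738 for CXCL5, as did 51% of all genes tested. CXCL5 was kept for this test only through the Scr1-named libraries.

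**Figure D1:**
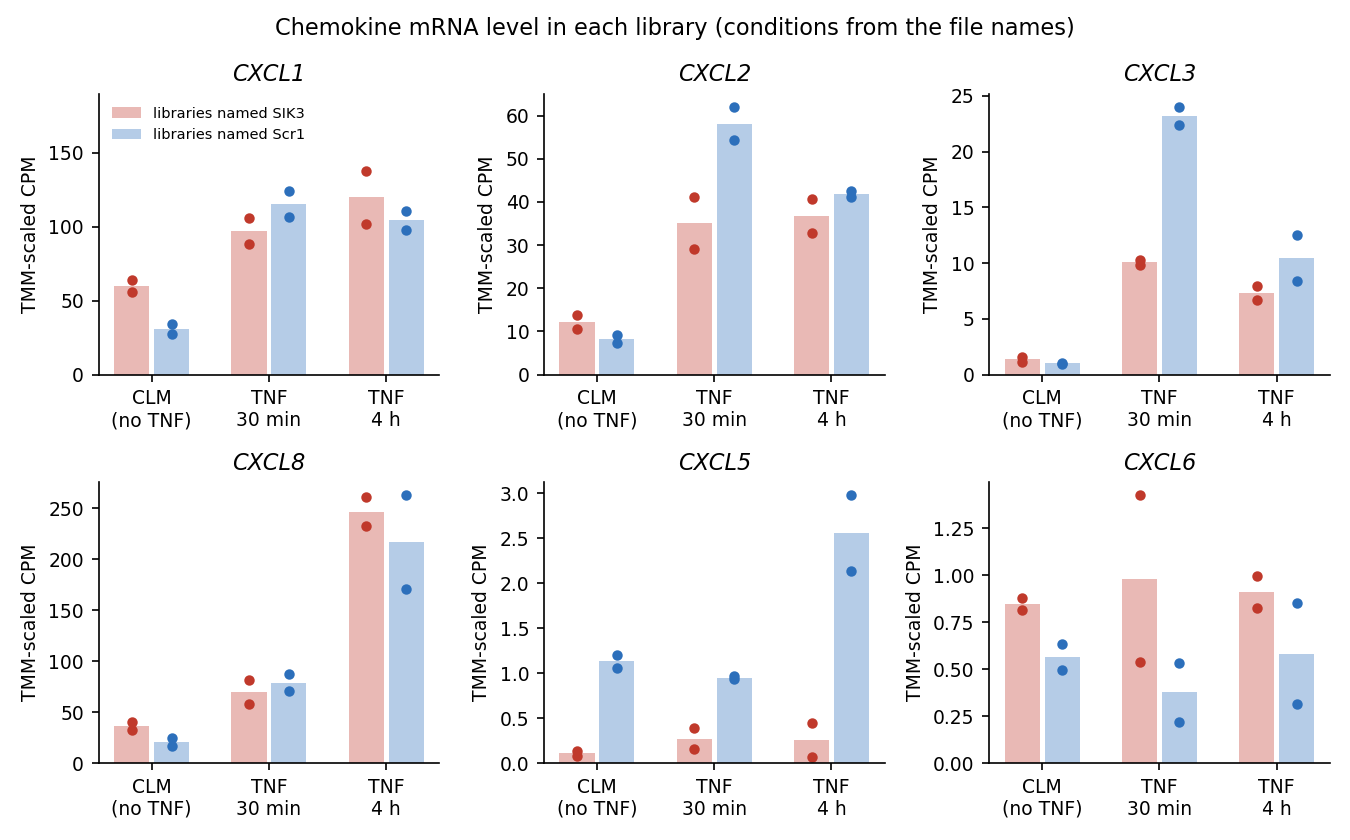
Level of each of the 6 chemokines in every library, in TMM-scaled CPM on linear axes that start at 0 and differ between panels, by file-name condition (CLM, 30min, 4h), with the SIK3-named libraries left of the Scr1-named ones; points are libraries and bars the mean of 2. CXCL8 is highest at 4h in both sets, CXCL3 peaks at 24.0 and 22.4 CPM in Scr1 30min, and CXCL5 is lower in all SIK3-named libraries.

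The spread between the highest and lowest condition mean differed among members. It was 3.88-fold for CXCL1, 7.01-fold for CXCL2, 11.7-fold for CXCL8, 23.1-fold for CXCL3, 23.3-fold for CXCL5 and 2.60-fold for CXCL6. Over the 12 libraries the log2 levels of CXCL2 and CXCL3 had a Pearson r of 0.973, those of CXCL1 and CXCL2 0.944, and those of CXCL1 and CXCL3 0.867. CXCL8 followed these at r = 0.798 with CXCL1, 0.748 with CXCL2 and 0.686 with CXCL3, while CXCL5 and CXCL6 stood at r = -0.583. These are descriptions over libraries that share conditions, depth and, for CXCL1 to CXCL3, part of their sequence.

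At the early time the SIK3-named libraries (SIK3 30min, titled control siRNA with TNF for 4 h, over SIK3 CLM, titled SIK3 siRNA with TNF for 30 min) showed higher CXCL3 and CXCL2. CXCL3 was at 10.1 ± 0.335 CPM in SIK3 30min and 1.37 ± 0.279 CPM in SIK3 CLM (SD, n = 2 each), a log2 fold change of 2.90 (SE 0.23, edgeR quasi-likelihood adjusted p = 0.000983). In a fit of the 4 libraries compared alone this call and that of CXCL2 were lost (edgeR adjusted p = 0.13 and 0.758). CXCL2 rose by a log2 fold change of 1.53 (SE 0.20, edgeR adjusted p = 0.0206), and this call was lost when any of 6 single libraries was left out (edgeR adjusted p 0.0525 to 0.353): both SIK3 CLM libraries, SIK3 30min replicate 2, both Scr1 30min libraries or Scr1 4h replicate 1. With 2 of 6 members higher, the family is to be read against 0.15% of all genes called in this comparison (0.138% higher, 0.012% lower), and its median log2 fold change of 1.15 against -0.001 over all genes. CXCL1 and CXCL8 had log2 fold changes of 0.70 (SE 0.18) and 0.95 (SE 0.26) that did not pass (edgeR adjusted p = 0.513 and 0.583). With the replicate number as a block both passed (edgeR adjusted p = 9.45e-07 and 4.14e-07), which raised the count to 4 members, in a fit that called 3.37% of genes. CXCL5 was at 1.34 (SE 0.83) and CXCL6 at 0.20 (SE 0.52) on the log2 scale, both at an edgeR adjusted p of 1.

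In the Scr1-named libraries at the same time (Scr1 30min, titled SIK3 siRNA without TNF, over Scr1 CLM, titled control siRNA without TNF) the 4 abundant members were higher. CXCL3 was at 23.2 ± 1.12 CPM in Scr1 30min and 1.01 ± 0.0767 CPM in Scr1 CLM (SD, n = 2 each), a log2 fold change of 4.53 (SE 0.25, edgeR adjusted p = 8.29e-05). CXCL2 rose by 2.81 (SE 0.21), CXCL1 by 1.90 (SE 0.18) and CXCL8 by 1.90 (SE 0.27) on the log2 scale, at edgeR adjusted p of 0.000349, 0.00152 and 0.0206. The count was 4 of 6 higher, where 0.294% of all genes were called, 0.27% higher and 0.024% lower. The median of the members was 1.90, against -0.003 over all genes. For CXCL8 the call was lost when any of 5 single libraries was left out, each of the 4 compared or SIK3 4h replicate 2 (edgeR adjusted p 0.0505 to 0.192), and in a fit of those 4 alone the calls of CXCL8 and CXCL1 were lost (edgeR adjusted p = 0.101 and 0.0526). CXCL5 (-0.24, SE 0.47) and CXCL6 (-0.58, SE 0.66) did not pass, both at an edgeR adjusted p of 1.

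At 4h the SIK3-named libraries (SIK3 4h over SIK3 CLM, titled SIK3 siRNA with TNF for 4 h and for 30 min) had all 4 abundant members higher, CXCL8 with the largest fold change. They share the CLM libraries with the comparison at 30min, as do the Scr1-named ones. CXCL8 was at 246.5 ± 19.8 CPM in SIK3 4h and 36.0 ± 5.64 CPM in SIK3 CLM (SD, n = 2 each), which is 6.83-fold, a log2 fold change of 2.77 (SE 0.27, edgeR adjusted p = 0.000601). CXCL3 rose 5.45-fold, CXCL2 3.04-fold and CXCL1 2.00-fold, at edgeR adjusted p of 0.000601, 0.00236 and 0.0122. The call of CXCL1 was lost without either SIK3 CLM library or without SIK3 4h replicate 2 (edgeR adjusted p 0.0679 to 0.114), and in a fit of the 4 libraries compared alone (0.0596). So 4 of 6 members were higher where 4.42% of all genes were called (3.65% higher, 0.767% lower), with a member median of 1.45 on the log2 scale against -0.002 over all genes. CXCL5 (1.30, SE 0.86) and CXCL6 (0.09, SE 0.54) did not pass (edgeR adjusted p = 0.535 and 0.974). The SIK3 4h libraries are also those with 16.5 and 17.1% of reads outside genes, and the part of this in the result was not tested.

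Among the Scr1-named libraries at 4h (Scr1 4h, titled control siRNA with TNF for 30 min, over Scr1 CLM) the same 4 members were higher, and CXCL3 and CXCL8 had the largest fold changes. CXCL3 was 10.5-fold higher (log2 3.38, SE 0.25) and CXCL8 10.3-fold higher (log2 3.36, SE 0.28), at edgeR adjusted p of 2.98e-05 and 5.98e-05. CXCL2 was 5.06-fold and CXCL1 3.38-fold higher, at edgeR adjusted p of 9.04e-05 and 0.00022. CXCL5 was at 2.55 ± 0.593 CPM in Scr1 4h and 1.13 ± 0.103 CPM in Scr1 CLM (SD, n = 2 each), a log2 fold change of 1.19 (SE 0.43) that did not pass (edgeR adjusted p = 0.146) but passed with the replicate block (edgeR adjusted p = 0.0221). The family thus had 4 of 6 members higher, 5 with the block, where 8.99% of all genes were called, 5.53% higher and 3.46% lower, and 23.5% with the block. The member median was 2.047 on the log2 scale, against -0.033 over all genes. CXCL6 stood at 0.09 (SE 0.63, edgeR adjusted p = 0.979).

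**Figure D2:**
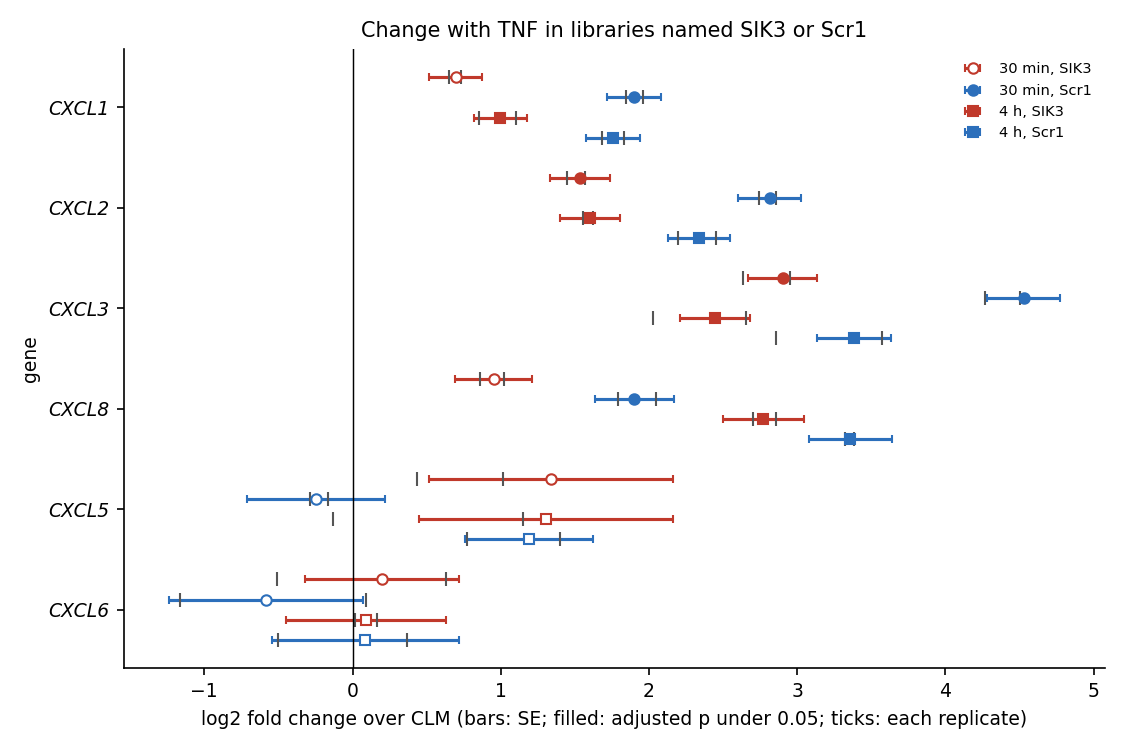
Log2 fold change of each chemokine after TNF over CLM at 30min and 4h, SIK3-named libraries beside Scr1-named ones; points are fitted values, filled where the adjusted p is under 0.05, bars the SE, and ticks the difference within each replicate number from log2 CPM with a prior count of 2, which draws low genes such as CXCL5 towards 0. At 30min CXCL3 is at 2.90 in the SIK3-named and 4.53 in the Scr1-named libraries, and at 4h CXCL8 is at 2.77 and 3.36.

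The members parted between the times. In the SIK3-named libraries CXCL8 was 3.53-fold higher at 4h than at 30min (log2 1.82, SE 0.26, edgeR adjusted p = 0.00323), while the difference was 0.07 (SE 0.19) for CXCL2 and 0.30 (SE 0.17) for CXCL1 on the log2 scale. CXCL3 was lower by a log2 fold change of -0.46 (SE 0.20, edgeR adjusted p = 0.237). Both CXCL1 and CXCL3 passed with the replicate block (edgeR adjusted p = 0.00165 and 0.0259), giving 2 members higher and 1 lower where 27.8% of genes were called. Without it 1 of 6 was higher, where 7.08% of all genes were called, 4.94% higher and 2.14% lower.

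In the Scr1-named libraries CXCL8 was 2.75-fold higher at 4h than at 30min (log2 1.46, SE 0.26, edgeR adjusted p = 0.00533), a call lost without Scr1 30min replicate 2 (edgeR adjusted p = 0.0567). CXCL3 went the other way and was 2.21-fold lower at 4h (log2 -1.14, SE 0.19, edgeR adjusted p = 0.00417). So 1 member was higher and 1 lower, where 11.1% of all genes were called, 6.18% higher and 4.92% lower. With the replicate block CXCL2 at -0.48 (SE 0.19) and CXCL5 at 1.43 (SE 0.43) passed as well (edgeR adjusted p = 0.000182 and 0.00556), against 0.18 and 0.0666 without it, which gave 2 higher and 2 lower where 28.1% of genes were called. CXCL1 was at -0.14 (SE 0.18, edgeR adjusted p = 0.755).

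Summed over the 6 genes, the family was at 110.6, 213.4 and 411.6 CPM on average in SIK3 CLM, 30min and 4h, and at 62.9, 276.9 and 376.3 CPM in Scr1 CLM, 30min and 4h. CXCL1 had the largest share of the sum without TNF, 54.3% in SIK3 CLM and 49.1% in Scr1 CLM, where replicate 1 had 43.8% CXCL1 and 40.2% CXCL8. By 4h CXCL8 made up most of it, 60.0% in SIK3 4h and 56.9% in Scr1 4h. CXCL3, a minor member throughout, had its largest share at 30min, 4.71% in SIK3 30min and 8.40% in Scr1 30min. In all 6 groups the share of CXCL8 was higher in replicate 1 and that of CXCL1 higher in replicate 2, the replicates that also differ in multimapping reads; the part of these reads in the shares was not tested.

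**Figure D3:**
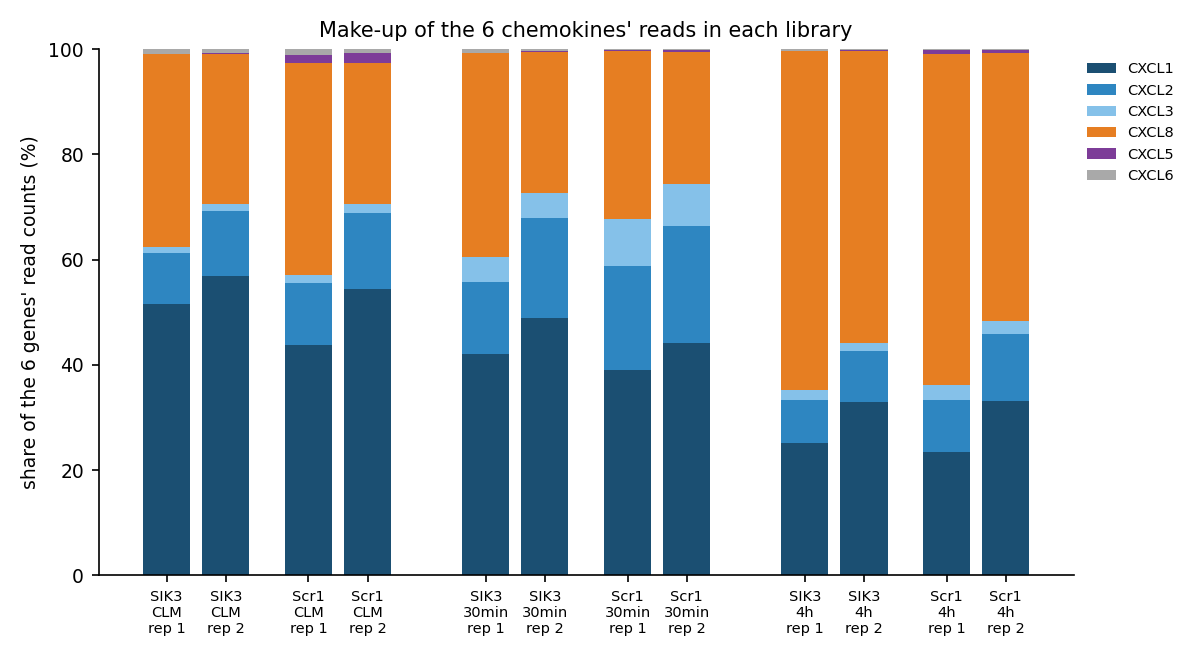
Share of the counts of the 6 chemokines taken by each gene, in percent, as 1 stacked bar per library, SIK3-named libraries left of Scr1-named ones at CLM, 30min and 4h. Averaged over the 2 bars of a group, CXCL1 holds 54.3% in SIK3 CLM and 49.1% in Scr1 CLM, and CXCL8 holds 60.0% in SIK3 4h and 56.9% in Scr1 4h.

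Set against the Scr1-named libraries, the SIK3-named ones had more CXCL1 and CXCL8 without TNF, less CXCL2 and CXCL3 after 30min, and less CXCL5 throughout. Without TNF (SIK3 CLM, titled SIK3 siRNA with TNF for 30 min, over Scr1 CLM) CXCL1 was at 60.1 ± 5.49 CPM in SIK3 CLM and 30.9 ± 4.99 CPM in Scr1 CLM (SD, n = 2 each), a log2 fold change of 0.96 (SE 0.18, edgeR adjusted p = 0.00225). CXCL8 was 1.71-fold higher (log2 0.77, SE 0.26, edgeR adjusted p = 0.0422), a call lost when any of 7 single libraries was left out (edgeR adjusted p 0.0549 to 0.237): either SIK3 CLM library, either SIK3 4h library, either Scr1 30min library or Scr1 CLM replicate 2. CXCL2 at 0.55 (SE 0.21) did not pass (edgeR adjusted p = 0.0642) but did with the replicate block (edgeR adjusted p = 0.000753), and CXCL3 was at 0.42 (SE 0.29, edgeR adjusted p = 0.323). CXCL5 was lower, with 4 counts in SIK3 CLM together and 37 in Scr1 CLM, a ratio of 0.0925 scaled to depth (95% exact Poisson interval 0.0240 to 0.258, counting error only). Its fitted log2 fold change was -3.35 (SE 0.67, edgeR adjusted p = 0.00334). CXCL5 was kept for testing only through the Scr1-named libraries it is set below, so its part in the counts of members called lower supports nothing. In all, 2 of 6 members were higher and 1, CXCL5, lower, where 38.6% of all genes were called, 18.9% higher and 19.8% lower, so the share of members called lies near that of all genes.

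After 30min CXCL2, CXCL3 and CXCL5 were lower (SIK3 30min, titled control siRNA with TNF for 4 h, over Scr1 30min, titled SIK3 siRNA without TNF). CXCL3 was 2.31-fold lower in the SIK3-named libraries (log2 -1.21, SE 0.19, edgeR adjusted p = 0.000891) and CXCL2 1.66-fold lower (log2 -0.73, SE 0.19, edgeR adjusted p = 0.0143). The call of CXCL2 was lost without SIK3 30min replicate 1 or without Scr1 30min replicate 2 (edgeR adjusted p 0.0831 to 0.0986). CXCL5, with 11 counts in SIK3 30min together and 35 in Scr1 30min, was lower at a ratio of 0.290 (95% exact Poisson interval 0.133 to 0.584) and a fitted log2 fold change of -1.76 (SE 0.56, edgeR adjusted p = 0.0326). That call was lost without either Scr1 30min library or SIK3 30min replicate 1 (edgeR adjusted p 0.0901 to 0.174), and CXCL5 was 6.07-fold lower without SIK3 30min replicate 2, against 3.40-fold with it. Here 3 of 6 members were lower, where 37.8% of all genes were called, 18.2% higher and 19.6% lower. As CXCL5 passed the filter on low counts only through the Scr1-named libraries, its part in that count supports nothing. CXCL1 at -0.25 (SE 0.17) was also lower with the replicate block (edgeR adjusted p = 0.00249, against 0.303 without it) and CXCL6 at 1.35 (SE 0.59) was higher (edgeR adjusted p = 0.0362, against 0.102), where 58.5% of genes were called. CXCL8 was at -0.18 (SE 0.25, edgeR adjusted p = 0.631).

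At 4h (SIK3 4h over Scr1 4h, titled control siRNA with TNF for 30 min) CXCL5 was the 1 member called. It had 9 counts in SIK3 4h together and 76 in Scr1 4h, a ratio of 0.104 (95% exact Poisson interval 0.0457 to 0.208), and a fitted log2 fold change of -3.23 (SE 0.53, edgeR adjusted p = 0.00112). With 1 and 8 counts in the SIK3 4h replicates its size was unstable, -2.53 without replicate 1 of SIK3 4h and -5.14 without replicate 2. As CXCL5 passed the filter on low counts only through the Scr1-named libraries, its call here supports nothing. CXCL3 was at -0.52 (SE 0.20, edgeR adjusted p = 0.0663), CXCL2 at -0.18 (SE 0.19), CXCL1 at 0.20 (SE 0.18), CXCL8 at 0.19 (SE 0.25) and CXCL6 at 0.57 (SE 0.59). That is 1 of 6 members, where 39.5% of all genes were called, 19.6% higher and 19.9% lower. Under the block it was 2 higher (CXCL1 and CXCL8, edgeR adjusted p = 0.0179 and 0.0233) and 2 lower (CXCL5, and CXCL3 at 0.00623), where 58.8% were called. The SIK3 4h libraries are those with most reads outside genes, whose part in these values was not tested.

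Averaged over the 3 conditions, CXCL5 was 6.87-fold lower in the SIK3-named libraries (log2 -2.78, SE 0.34, edgeR adjusted p = 7.19e-05), or by a log2 fold change of -3.42 without SIK3 4h replicate 2. That test too rests on a gene kept only through the Scr1-named libraries, with 4 of the 6 SIK3-named ones at or under the floor. CXCL3 was lower at -0.44 (SE 0.14, edgeR adjusted p = 0.0192) and CXCL1 higher at 0.30 (SE 0.10, edgeR adjusted p = 0.0262). The call of CXCL3 was lost without SIK3 CLM replicate 1 (edgeR adjusted p = 0.0583), and that of CXCL1 without any of 6 libraries, replicate 2 of each SIK3-named group or replicate 1 of each Scr1-named group (edgeR adjusted p 0.055 to 0.0976). Together 1 member was higher and 2 were lower, where 59.2% of all genes were called, 30.2% higher and 29% lower. CXCL6 (0.83, SE 0.34) and CXCL8 (0.26, SE 0.15) were also higher with the replicate block, at edgeR adjusted p of 0.0175 and 6.52e-05 against 0.0587 and 0.157 without it, where 72.5% were called. CXCL2 was at -0.12 (SE 0.11).

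**Figure D4:**
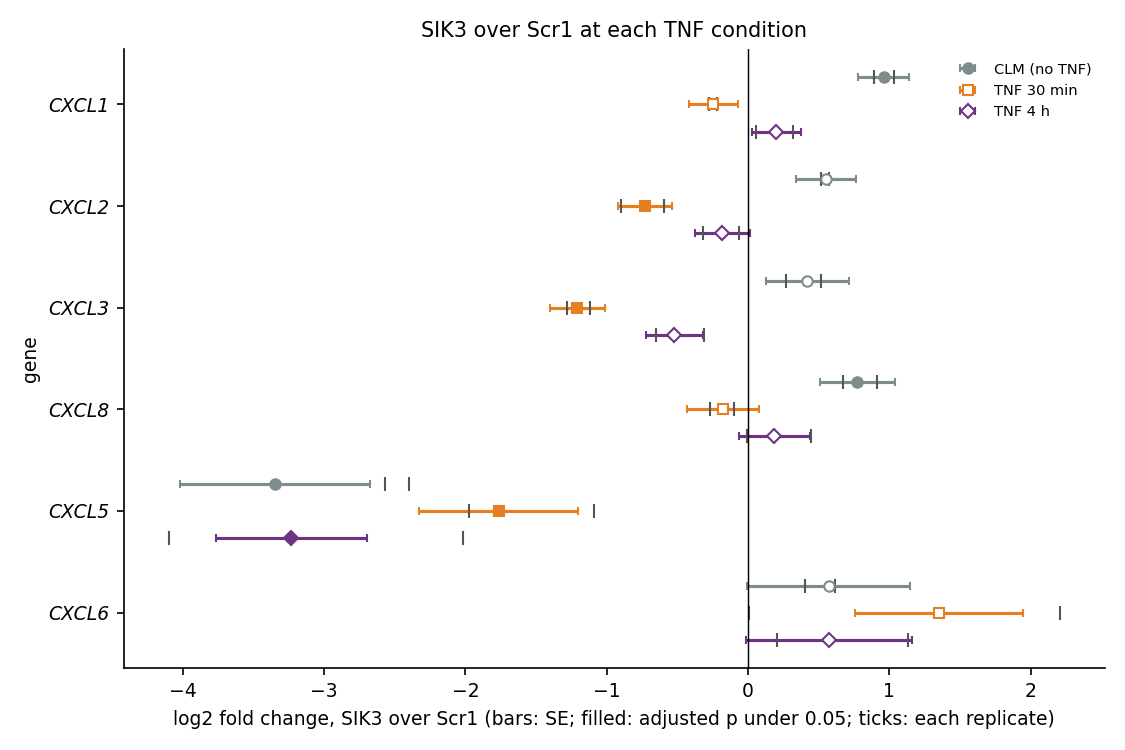
Log2 fold change of each chemokine in the SIK3-named over the Scr1-named libraries at CLM, 30min and 4h; points are fitted values, filled where the adjusted p is under 0.05, bars the SE, and ticks the difference within each replicate number from log2 CPM with a prior count of 2. CXCL1, CXCL2, CXCL3 and CXCL8 lie above 0 at CLM and below 0 at 30min, and CXCL5 lies below 0 at all 3, from -3.35 to -1.76.

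The difference between those differences was tested directly, as the TNF response in the SIK3-named libraries minus that in the Scr1-named ones. At 30min it was -1.63 (SE 0.35) for CXCL3, -1.28 (SE 0.29) for CXCL2, -1.21 (SE 0.25) for CXCL1 and -0.95 (SE 0.37) for CXCL8 on the log2 scale. Unadjusted edgeR p-values were 0.00103, 0.00131, 0.000803 and 0.0277, but the adjusted p was 1 for each, and 0 of 16695 genes (0%) passed, while 317 genes (1.9%), 4 members among them, had an unadjusted p under 0.05 and the DESeq2 Wald test called 6 genes, of which CXCL1 was 1 (adjusted p = 0.033). With no filter on low counts CXCL1, CXCL2 and CXCL8 passed (edgeR adjusted p = 3.38e-05, 0.00101 and 0.0087). With the replicate block CXCL1, CXCL2 and CXCL8 passed (edgeR adjusted p = 8.64e-07, 5.73e-05 and 0.000384) and CXCL3 did not (0.0775), where 44 genes (0.264%) were called. All 4 responses were smaller in the SIK3-named libraries within each replicate number. CXCL5 (1.58, SE 0.95) and CXCL6 (0.78, SE 0.84) pointed upward without passing in either fit.

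At 4h the same difference was -0.94 (SE 0.36) for CXCL3, -0.76 (SE 0.25) for CXCL1, -0.73 (SE 0.29) for CXCL2 and -0.59 (SE 0.36) for CXCL8. Of the members 0 passed (edgeR adjusted p 0.244 to 0.685 for these 4), 3 had an unadjusted p under 0.05 and the DESeq2 Wald test called 0, where 1.56% of all genes were called, 0.719% higher and 0.845% lower, and 11.1% had an unadjusted p under 0.05. With no filter CXCL1 passed (edgeR adjusted p = 0.0211). With the replicate block CXCL1, CXCL2 and CXCL8 passed (edgeR adjusted p = 1.24e-05, 0.00218 and 0.00455) and CXCL3 did not (0.129), where 12% of genes were called. CXCL5 was at 0.12 (SE 0.70) and CXCL6 at 0.00 (SE 0.95).

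Along the chromosome the 4 members called after TNF do not lie side by side. CXCL8 stands at one end of the cluster, CXCL2 and CXCL3 at the other, and CXCL6 and CXCL5 lie to either side of CXCL1. The related platelet chemokines within the cluster were all but silent, with 0 counts for PPBP, 1 for PF4 and 58 for PF4V1 over the 12 libraries, and the pseudogene CXCL1P1 had 0. Of the 10 listed genes of the cluster and its neighbours 5 could be tested. Near the cluster, EREG, which encodes the EGF receptor ligand epiregulin, was at 241.4 CPM in SIK3 CLM and 270.7 CPM in SIK3 4h, against 128.9 CPM in Scr1 CLM and 154.1 CPM in Scr1 4h, and was 2.20-fold higher in SIK3 30min than in Scr1 30min. AREG, which encodes the ligand amphiregulin, was at 28.8, 33.7 and 17.7 CPM in SIK3 CLM, 30min and 4h, against 11.6, 9.81 and 4.83 CPM in Scr1 CLM, 30min and 4h. Both were higher in the SIK3-named libraries at each time, at edgeR adjusted p of 4.48e-05 to 0.000271 for AREG and 9.76e-05 to 0.000755 for EREG. Of all genes 38.6%, 37.8% and 39.5% were called in SIK3 over Scr1 at CLM, 30min and 4h. Receptors were not found in amount: CXCR1 and the decoy receptor ACKR1 had 0 counts in all 12 libraries, and CXCR2 had 10 counts, at most 0.237 CPM.

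**Figure D5:**
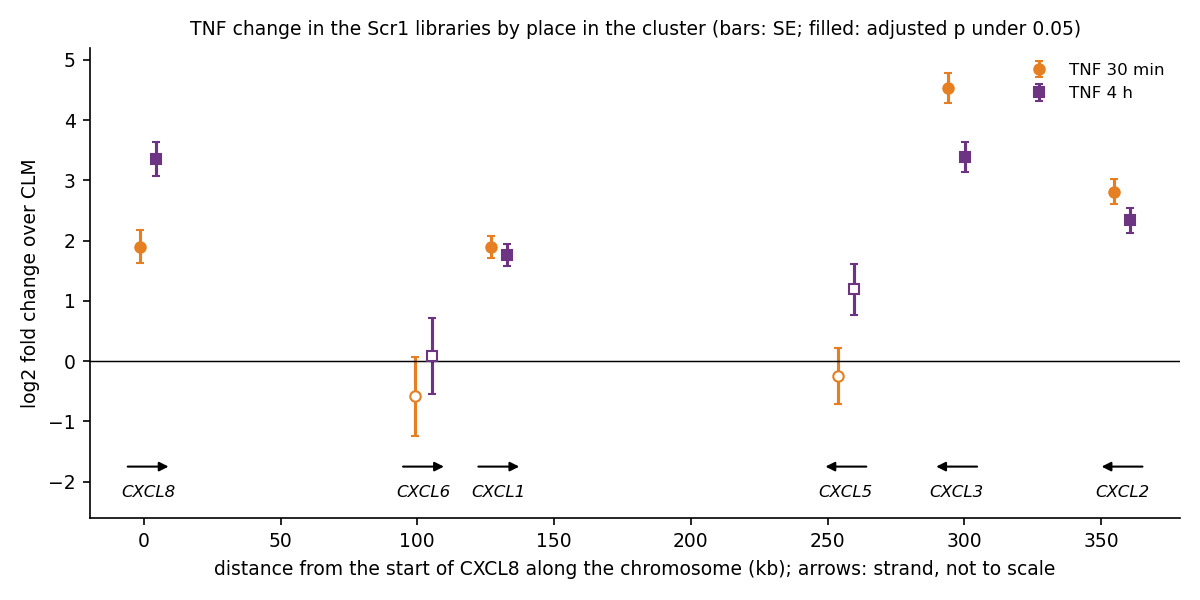
Fitted log2 fold change after TNF over CLM in the Scr1-named libraries for the 6 chemokines against their place along the chromosome, in kb from the start of CXCL8; circles are 30min and squares 4h, set slightly left and right of the gene, bars the SE, filled symbols an adjusted p under 0.05, and arrows the strand. CXCL8 at one end, CXCL1, and CXCL3 and CXCL2 at the other end are filled and lie at 1.76 or above, while CXCL6 and CXCL5 are open at both times.

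Some NF-κB pathway genes responded at the early time as well. Of 12 NF-κB and IκB genes, 3 rose at 30min in the SIK3-named and 3 in the Scr1-named libraries, and in both these were NFKBIZ, which encodes a nuclear IκB protein, NFKBIA, which encodes the inhibitor IκBα, and TNFAIP3, which encodes the feedback enzyme A20. At 4h 8 of 12 rose in the SIK3-named libraries, with a median log2 fold change of 0.87, and 9 of 12 rose in the Scr1-named ones, with a median of 1.22. With the replicate block all 12 rose at 4h in either set, and at 30min 3 fell in the SIK3-named and 2 in the Scr1-named libraries beside the 3 that rose. Of all genes 0.15% in the SIK3-named and 0.294% in the Scr1-named libraries were called at 30min, and 4.42% and 8.99% at 4h. With the block these shares were 3.37% and 2.78% at 30min, and 21.8% and 23.5% at 4h. NFKBIZ was the gene outside the family most like CXCL3 in pattern. It was at 38.6, 130.5 and 117.6 CPM in SIK3 CLM, 30min and 4h. In Scr1 CLM, 30min and 4h it was at 46.9, 301.0 and 108.7 CPM. NFKBIA was at 156.1, 301.1 and 560.3 CPM in those SIK3-named groups and at 216.0, 638.0 and 941.0 CPM in the Scr1-named ones. TNFAIP3 was at 21.1, 55.1 and 115.3 CPM in the SIK3-named groups, against 38.2, 155.0 and 275.9 CPM in the Scr1-named ones. In the SIK3-named over the Scr1-named libraries 1 of the 12 was higher and 4 were lower at CLM, 5 were lower at 30min and 7 at 4h, with list medians of -0.31, -0.36 and -0.49. Over all genes 38.6%, 37.8% and 39.5% were called at those times, near the share of the list at CLM and 30min. Under the block these were 2 higher and 7 lower, 2 and 6, and 8 lower, where 58.4%, 58.5% and 58.8% of genes were called. The early responses of NFKBIZ, NFKBIA and TNFAIP3 differed between the SIK3-named and Scr1-named libraries by -0.93, -0.62 and -0.64 on the log2 scale, none of which passed without the replicate block (edgeR adjusted p = 0.988 for NFKBIZ and 1 for the others). All 3 passed with it (edgeR adjusted p = 4.49e-05, 0.000414 and 0.0127).

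AP-1 genes, whose products bind the TGACTCA letters seen in the CXCL8 promoter, were among the early responders. Of 12 AP-1 and C/EBP genes 4 rose at 30min in the SIK3-named libraries (JUNB, ATF3, JUN and FOS) and 3 in the Scr1-named ones (JUNB, ATF3 and JUN). FOS in the Scr1-named libraries was at 0.97 on the log2 scale (SE 0.17, edgeR adjusted p = 0.078) and passed with the replicate block (edgeR adjusted p = 2.51e-06). ATF3 was at 62.5, 158.3 and 128.0 CPM in SIK3 CLM, 30min and 4h, against 70.7, 148.6 and 146.1 CPM in Scr1 CLM, 30min and 4h. The list medians at 30min were 0.26 in the SIK3-named and 0.43 in the Scr1-named libraries, and with the replicate block 6 and 7 rose and 1 fell in each. At 4h 4 of the 12 rose in the SIK3-named libraries, and 5 rose and FOS fell in the Scr1-named ones, against 6 higher in each and 3 lower in the Scr1-named ones with the block. Among all genes 0.15% in the SIK3-named and 0.294% in the Scr1-named libraries were called at 30min, and 4.42% and 8.99% at 4h. With the block these shares were 3.37% and 2.78% at 30min, and 21.8% and 23.5% at 4h. In the SIK3-named over the Scr1-named libraries 4 were higher and 2 lower at CLM, 3 and 1 at 30min, and 5 and 1 at 4h, beside 38.6%, 37.8% and 39.5% of all genes called in either direction. Under the block these were 5 and 4, 4 and 4, and 6 and 2, beside 58.4%, 58.5% and 58.8%.

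Genes that act on AU-rich mRNAs were mostly not called after TNF without the replicate block. ZFP36, not among the 4 genes named from this list, ranged from 157 to 2724 CPM over the 12 libraries. Of 8 tested, ZC3H12A, which encodes the RNase Regnase-1, was the 1 that rose at 4h, 2.86-fold in the SIK3-named libraries (edgeR adjusted p = 0.00611) and 4.13-fold in the Scr1-named ones (edgeR adjusted p = 0.000383). Adding the block, 4 rose and 1 fell at 4h in the SIK3-named and 2 rose in the Scr1-named libraries, and at 30min 1 and 4 rose. At 4h 4.42% of all genes were called in the SIK3-named and 8.99% in the Scr1-named libraries. With the block these shares were 21.8% and 23.5% at 4h, and 3.37% and 2.78% at 30min. ELAVL1, which encodes the stabilising protein HuR, was at 32.9, 31.9 and 36.9 CPM in SIK3 CLM, 30min and 4h, against 60.3, 60.7 and 66.9 CPM in Scr1 CLM, 30min and 4h, lower at every time (edgeR adjusted p 3.91e-05 to 7.32e-05). HNRNPD, which encodes the AU-binding protein AUF1, was at 78.7, 66.6 and 80.9 CPM in the SIK3-named groups and 40.1, 39.7 and 42.2 CPM in the Scr1-named ones, higher at every time (edgeR adjusted p 0.00516 to 0.0192). ZFP36L2 was higher at CLM and 4h (edgeR adjusted p = 0.0192 and 0.0026). ZC3H12A was lower at 30min and 4h (edgeR adjusted p = 0.00577 and 0.0329). Over the list 2 genes were higher and 1 lower in SIK3 over Scr1 at CLM, 1 and 3 at 30min, and 2 and 2 at 4h. Beside these, 38.6%, 37.8% and 39.5% of all genes were called. Under the block the list had 4 and 2, 2 and 5, and 2 and 3, beside 58.4%, 58.5% and 58.8%.

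Genes next to the TNF receptor included 8 tested, of which 3 rose in the SIK3-named and 2 in the Scr1-named libraries at 4h, with list medians of 0.11 and 0.32. Adding the replicate block, 3 and 4 rose and 1 fell in each, and 2 and 1 fell at 30min. Beside these, 4.42% and 8.99% of all genes were called at 4h. With the block these shares were 21.8% and 23.5% at 4h, and 3.37% and 2.78% at 30min. BIRC3, which encodes the ubiquitin ligase cIAP2, and TNFRSF1B, which encodes TNF receptor 2, were lower in the SIK3-named libraries at every time, by log2 fold changes from -1.10 to -0.92 for BIRC3 and from -1.50 to -1.06 for TNFRSF1B. Over the list 2 genes were higher and 4 lower in SIK3 CLM, 2 and 4 in SIK3 30min, and 1 and 3 in SIK3 4h, beside 38.6%, 37.8% and 39.5% of all genes called, against 3 and 4 at each time with the block, beside 58.4%, 58.5% and 58.8%.

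Of 8 other cytokines listed as neutrophil-directed 5 could be tested. The list also holds CCL20, which attracts lymphocytes and dendritic cells, so it reaches beyond neutrophils. At 4h 3 of the 5 rose in the SIK3-named libraries, or 5 with the replicate block, and all 5 rose in the Scr1-named ones. List medians were 2.86 and 3.56, the first of which is the value of CCL20 itself. Of all genes 4.42% and 8.99% were called in these comparisons, and 21.8% and 23.5% with the block. IL1B, 1 of the 5, had 39 counts over the 12 libraries and at most 0.949 CPM. IL1B lies near the filter on low counts, so its part in the counts of this list supports nothing. IL1A, with 131 counts, was at 0.0418 ± 0.0591 CPM in SIK3 CLM and 0.380 ± 0.163 CPM in Scr1 CLM (SD, n = 2 each). It was kept only through libraries named 30min or 4h, so its part in these counts supports nothing either. CSF2, which encodes GM-CSF, was at 0.473, 0.425 and 2.29 CPM in SIK3 CLM, 30min and 4h, against 0.389, 2.09 and 8.64 CPM in Scr1 CLM, 30min and 4h. It was the 1 gene of the list that rose at 30min, in the Scr1-named libraries (log2 2.48, SE 0.41, edgeR adjusted p = 0.0476), and with the block CCL20 and LIF rose there as well (edgeR adjusted p = 1.64e-07 and 0.00173), 3 of the 5. There 0.294% of all genes were called, and 2.78% with the block. CCL20, a chemokine for lymphocytes and dendritic cells, was at 16.1, 18.6 and 118.5 CPM in SIK3 CLM, 30min and 4h, against 11.7, 29.1 and 247.2 CPM in Scr1 CLM, 30min and 4h. In SIK3 over Scr1 1 of the 5 was lower at CLM, which is IL1A and so supports nothing. At 30min 1 was lower (CSF2), and at 4h 4 were. Beside these, 38.6%, 37.8% and 39.5% of all genes were called at CLM, 30min and 4h. With the block 1 was lower and 1 higher at CLM, 3 were lower at 30min and 5 at 4h. Beside these, 58.4%, 58.5% and 58.8% of all genes were called.

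Of 9 other CXC and CX3C chemokines 4 could be tested. Of these CXCL10 and CXCL11 were kept only through Scr1 4h, so no count over the 4 is given. CX3CL1, the membrane-bound chemokine fractalkine, was at 81.1, 56.4 and 290.1 CPM in SIK3 CLM, 30min and 4h, against 133.3, 111.1 and 595.0 CPM in Scr1 CLM, 30min and 4h, and rose at 4h in both sets (edgeR adjusted p = 0.00481 in the SIK3-named and 0.000711 in the Scr1-named libraries). CXCL11, a ligand of CXCR3, the receptor on activated T cells, was at 0.116 ± 0.0700 CPM in SIK3 4h and 1.04 ± 0.243 CPM in Scr1 4h (SD, n = 2 each). CXCL10, its relative, was at 0.188 ± 0.110 CPM in SIK3 4h and 0.930 ± 0.0270 CPM in Scr1 4h (SD, n = 2 each). The other 4 groups had 0.0816 to 0.235 CPM of either mRNA, so both reached the filter on low counts in Scr1 4h alone, and no test is given.

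The genes with the pattern most like each member were found by Pearson correlation of log2 CPM over the 12 libraries, 3 for each, as a description. For CXCL3 they were NFKBIZ (r = 0.951), ATF3 (0.943) and IER3 (0.933), and for CXCL2 they were ELF3 (0.934), AL021578.1 (0.933) and ATF3 (0.917). Outside the family CXCL1 was closest to CD69 (0.91), KLF6 (0.908) and AL021578.1 (0.895). CXCL8, whose level grew on to 4h, was closest to GBP2 (0.959), SOCS3 (0.936) and CCL20 (0.928). For CXCL5, low in all SIK3-named libraries, the nearest were TMEM173 (0.972), AC004943.2 (0.966) and ANP32E (0.961). CXCL6, with few counts, was nearest to MFSD3 (0.927), ZNF311 (0.905) and WARS2 (0.895). These libraries share conditions and replicate numbers, and 16695 genes were searched.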

How the data were processed

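The authors deposited counts, whole numbers of reads per gene, 1 column for each of 12 PANC-1 libraries, and per the submitters' processing notes STAR 2.05b, edgeR and GRCh38 were used. RNA was extracted by RNeasy with DNase I and libraries made with ScriptSeq, per the labels' protocols. The strand setting, annotation release and read length are not given in the sources used here. Symbols and positions came from GENCODE 29 (3742 of 60669 identifiers had none) and promoters from RefSeq.

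Counts were fitted in R 4.3.3 with edgeR 4.0.16: filterByExpr (minimum count 10, 16695 genes kept), TMM scaling, and a quasi-likelihood fit of the 6 library groups (6 residual degrees of freedom) with 12 contrasts. P-values were adjusted over all genes by Benjamini-Hochberg at a threshold of 0.05. Groups follow the file-name words, and the titles were an alternative. Likeness used log2 CPM with a prior count of 2. Replicates within a group differed by a chi-square of 17.9 to 36.5 per degree of freedom, above counting error. The main fit did not pair the replicate numbers. Deviations of replicate 1 from its group mean correlated across genes at 0.35 to 0.53 (median 0.421) in all 15 pairs of groups, a pairing that the main fit leaves out. A second fit with the replicate number as a block was therefore run, and its values are given where they change a call. That fit had 5 residual degrees of freedom.

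The 6 members were named in every comparison, and of each other list the 4 genes at most with the smallest p for any difference among the groups. Members and lists were chosen with earlier results of these data known. On simulated data the fit recovered 31.2% of genes seeded at 2-fold and 68.8% at 4-fold for TNF 30min over CLM in Scr1. Alternatives included DESeq2 1.42.0. Figures were drawn in Python 3.11.15.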

Additional observations from a re-analysis of the deposited data

Results flagged for a closer look

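The difference between the SIK3-named and the Scr1-named libraries had one sign without TNF and the other with it for several members. In the main fit no member passed with both signs. CXCL1 and CXCL8 did not pass at 30min (edgeR adjusted p = 0.303 and 0.631), nor CXCL2 and CXCL3 at CLM (0.0642 and 0.323). With the replicate block CXCL1 and CXCL2 passed at CLM and at 30min. At 30min against CLM the change in that difference, on the log2 scale, was -1.21 for CXCL1, -1.28 for CXCL2, -1.63 for CXCL3 and -0.95 for CXCL8. In both replicates all 4 were higher in SIK3 CLM than in Scr1 CLM and lower in SIK3 30min than in Scr1 30min: CXCL3, for example, differed by -1.28 and -1.11 with TNF and by 0.27 and 0.52 without it.

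At 4h against CLM the change was -0.76 for CXCL1, -0.73 for CXCL2, -0.94 for CXCL3 and -0.59 for CXCL8. CXCL2 and CXCL3 again had opposite signs in both replicates, at -0.32 and -0.07 for CXCL2 with TNF against 0.51 and 0.57 without it, while CXCL1 was higher with and without TNF in both and CXCL8 differed by -0.01 and 0.45 with TNF. The edgeR test of the change itself with the filter on low counts and no replicate block passed for no member at either time. With no filter it passed for CXCL1, CXCL2 and CXCL8 at 30min and CXCL1 at 4h, and the DESeq2 Wald test passed for CXCL1 at 30min. With the block it passed for CXCL1, CXCL2 and CXCL8 at both times but not for CXCL3. By title these groups carry other conditions, so the change is one between libraries named SIK3 30min, SIK3 4h, SIK3 CLM, Scr1 30min, Scr1 4h and Scr1 CLM.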

How the results depend on the processing

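Counts of members called (higher or lower, of 6) moved by more than 1.5 times as follows. With the replicate block, 4 were higher in SIK3 30min over CLM, 2 higher and 2 lower in Scr1 4h over 30min, 2 higher and 1 lower in SIK3 4h over 30min, 1 higher in SIK3 over Scr1 at 30min, 2 higher and 2 lower at 4h, 3 higher over the mean, and 3 lower in the interaction at 30min and 3 at 4h. With no filter, 4 were higher in SIK3 30min over CLM, 2 higher in Scr1 4h over 30min, 1 higher in SIK3 over Scr1 at 30min, 3 higher over the mean, and 3 and 1 lower in the interactions at 30min and 4h. Library totals, which shift SIK3 over Scr1 by 0.0667 at CLM, 0.0954 at 30min and 0.1003 at 4h on the log2 scale, gave 2 higher over the mean and moved the level of CXCL2 in Scr1 4h to 39.3 CPM and that of CXCL3 in SIK3 30min to 10.5 CPM. An adjusted p under 0.01 left 1 higher in SIK3 30min over CLM, 1 higher in SIK3 over Scr1 at CLM, 1 lower at 30min, and 0 higher and 1 lower over the mean. Fitting only the libraries compared left 2 higher in Scr1 30min over CLM and 0 in SIK3 30min over CLM, and the DESeq2 Wald test gave 1 lower in the interaction at 30min. Smaller moves were 3 higher in SIK3 over Scr1 at CLM (block, no filter, library totals and DESeq2 Wald test), 5 higher in Scr1 4h over CLM (block and no filter), 4 lower in SIK3 over Scr1 at 30min (block), 3 higher in Scr1 30min over CLM (adjusted p under 0.01) and 3 higher in SIK3 4h over CLM (adjusted p under 0.01, and only the libraries compared). DESeq2 size factors moved no count, and a stricter filter (1 CPM or more, 4 libraries or more) left out CXCL6.

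Leaving out 1 library gave 3 to 4 higher in Scr1 30min over CLM, 4 to 4 in Scr1 4h over CLM, 1 to 2 in SIK3 30min over CLM, 3 to 4 in SIK3 4h over CLM, 0 to 2 higher and 1 to 1 lower in Scr1 4h over 30min, and 1 to 1 higher in SIK3 4h over 30min. For SIK3 over Scr1 it gave 1 to 3 higher and 1 to 1 lower at CLM, 0 to 1 and 1 to 3 at 30min, 0 to 0 and 1 to 2 at 4h, 0 to 2 and 1 to 2 over the mean, and 0 to 0 in both interactions.

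Conditions from the titles, which regroup the libraries, gave 1 lower in Scr1 4h over CLM, 0 higher and 5 lower in SIK3 30min over CLM, 1 and 3 in SIK3 4h over CLM, 0 and 2 in Scr1 4h over 30min, 4 higher in SIK3 4h over 30min, 4 and 0 in SIK3 over Scr1 at CLM, 5 lower at 30min, 1 and 0 at 4h, 1 lower over the mean, and 5 and 3 lower in the interactions at 30min and 4h. Log2 values turned round for CXCL5 in Scr1 4h over CLM (-2.01). In SIK3 30min over CLM they did so for CXCL1 (-0.94), CXCL2 (-2.26), CXCL3 (-4.11), CXCL5 (-3.10) and CXCL8 (-1.13), and in SIK3 4h over CLM for CXCL2 (-0.66), CXCL3 (-1.66) and CXCL5 (-1.80). The others were CXCL5 (-3.20) and CXCL8 (-1.63) in Scr1 4h over 30min, CXCL3 in SIK3 4h over 30min (2.45), CXCL3 over the mean (0.37) and CXCL5 in the interaction at 30min (-4.29). The cause of other moves was not tested. At this depth CXCL5 and CXCL6 rest on 172 and 153 counts over 12 libraries, which limits their precision.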
